A study of Mus musculus with 2 samples.

Results

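Smpdl3b and 9 other genes of sphingolipid metabolism (Smpdl3a, Smpd1, Sgms1, Sgms2, Cers2, Cers6, Asah1, Degs1 and Sphk2) were followed through the cell classes of the mouse liver. The genes were taken by symbol, and all 10 were found among the 32285 genes of the count matrix. Their levels were read in 17 cell classes set by marker genes and in each of 2 libraries, with hepatocyte-like cells split by depth.

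Sphingolipids are membrane lipids built on ceramide. Ceramide is made by ceramide synthases, which join a fatty acid to a sphingoid base, and by a desaturase that adds the last double bond. Sphingomyelin synthases turn ceramide into sphingomyelin, sphingomyelinases reverse that step, ceramidases release sphingosine, and sphingosine kinases make the signalling lipid sphingosine 1-phosphate. In the liver, ceramide has been tied to steatosis and insulin resistance. SMPDL3B is a membrane-anchored phosphodiesterase related in sequence to acid sphingomyelinase and is known to restrain Toll-like receptor signalling in macrophages.

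The study asked what CEBPA, a transcription factor of hepatocytes, does in liver fibrosis, and the labels of this experiment name 1 Cebp KO and 1 Cebp WT liver. Per the methods, the study's knockouts were Cebpa fl/fl animals that also carried Albumin-cre or the inducible Albumin-ERT2-cre, both active in cells that express albumin, on a C57BL/6N background, and the mice were male. Both mice had eaten a 40% HFCFD (high fat, cholesterol and fructose) for 2 weeks. Other mice of the study on this diet for that time were of the Albumin-cre line with Cebpa fl/fl controls, while the labels here say only Cebp KO and Cebp WT. Livers were perfused and digested, cells were purified on Percoll, and each sample took a separate lane for 10x 3' v3.1 sequencing, which counts unique molecular identifiers (UMIs). No source used here gives the animals' ages.

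The barcodes of the joined matrix end in suffix 1 or suffix 2, and no label ties a suffix to a genotype, so the libraries are named by suffix and no difference between them is read as an effect of the knockout. With 1 library for each genotype there was no replicate, cells are not replicates, and no test was run. Intervals are 95% and cover counting error only. The targeted gene, Cebpa, gave 18 UMIs in 634 deep hepatocyte-like cells with suffix 1, which is 1.23 UMIs per 1000000 UMIs of the class (CPM), and 880 UMIs in 532 such cells with suffix 2, which is 109.1 CPM. No source used here says which part of the gene the allele removes, and these values were used to assign neither library.

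The libraries held 17313 and 15003 barcodes with 60048646 and 52355243 UMIs, of which 11617 and 6088 cells passed the filters. They differed in the mitochondrial share, with a median over all barcodes of 4.07% with suffix 1 and 41.3% with suffix 2. In all, 81 barcode sequences occurred in both libraries. Deep hepatocyte-like cells, with at least 5000 UMIs, had a median of 24526 UMIs with suffix 1 and 13121.5 with suffix 2. Their mitochondrial share was alike after the filter (medians of 15.7% and 15.5%), and hepatocyte markers took 12.8% and 13.7% of their UMIs. Mitochondrial genes, G6pc, Slc26a1 and Lpin1 led them over the other classes. Shallow hepatocyte-like cells, with 500 to 5000 UMIs, numbered 8647 and 3363 and had medians of 1139 and 1190 UMIs.

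Smpdl3b lies on the minus strand at chr4:132732966-132757252 in GENCODE M21 (GRCm38), with 8 exons in its 1 annotated transcript. The 250 bases before its RefSeq start are shown because this member had the largest difference between the libraries. No cause of that difference is read from them. They cover chr4:132757172-132757421 of GRCm38.p6 and are written 5′ to 3′ on the minus strand, with the CCAAT letters in capitals. GENCODE places the start of the gene inside this window, at 132757252.
Smpdl3b: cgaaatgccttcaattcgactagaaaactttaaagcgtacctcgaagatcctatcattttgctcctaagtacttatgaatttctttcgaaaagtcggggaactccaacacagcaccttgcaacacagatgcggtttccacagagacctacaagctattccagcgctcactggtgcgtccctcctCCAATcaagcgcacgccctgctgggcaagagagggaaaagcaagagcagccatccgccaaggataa
This window has a GC content of 48.8%. The letters TTGCNNAA, a form of the C/EBP motif, were searched on both strands and occur in 9.564% of 32851 RefSeq promoter windows, but not in the Smpdl3b window. The 8 members found among the RefSeq windows have 18 windows, since a gene can have several starts, and these letters occur in 1 of the 18, a window of Cers2. CCAAT, searched on both strands as a motif separate from the C/EBP letters, occurs in 33.85% of all windows and in 8 of the 18. The search covered only the 250 bases before each start. A match is a match of letters, and a missing match says only that these letters are not in the window.

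In deep hepatocyte-like cells Smpdl3b was at 8.62 CPM (7.18 to 10.3, 126 UMIs in 101 cells) with suffix 1 and at 0.62 CPM (0.201 to 1.45, 5 UMIs in 5 cells) with suffix 2. The intervals do not overlap. The level with suffix 1 was 13.9 times that with suffix 2 (interval 5.80 to 43.6), a log2 ratio of 3.80. Smpdl3b was the only member at least 2 times higher with suffix 1, where 4.67% of 11652 genes with at least 20 UMIs over both libraries passed that fold, and it ranked 15 among them. It also passed a fold of 10, as did 43 genes (0.369%). None of the 10 members was at least 2 times higher with suffix 2, where 4.71% of genes were.

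**Figure D1:**
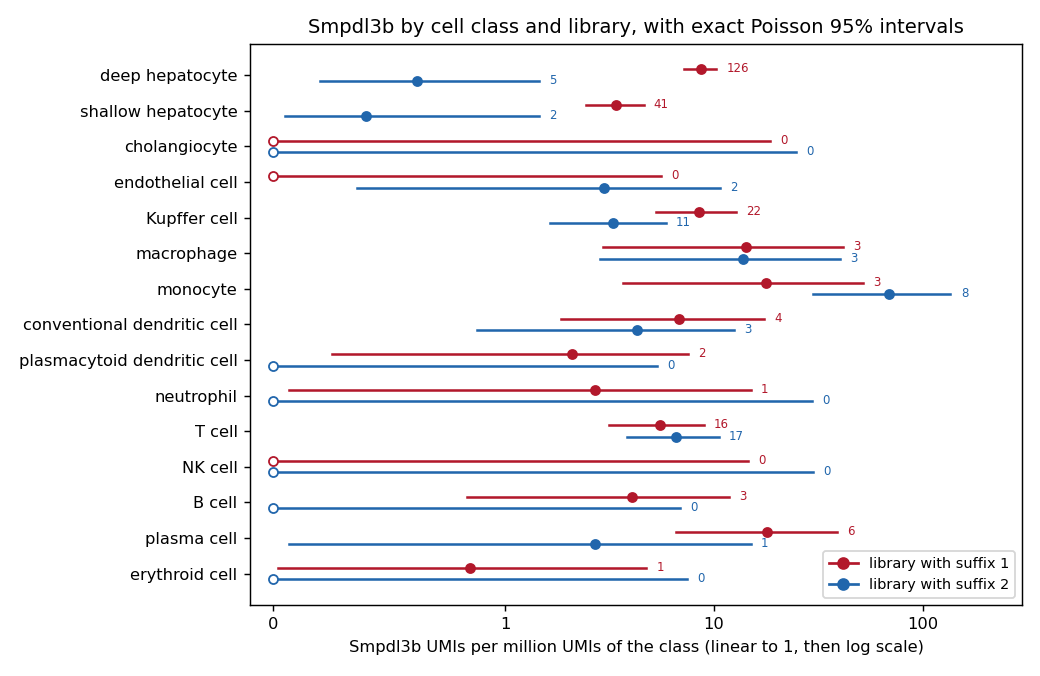
Smpdl3b level (horizontal axis, UMIs per 1000000 UMIs of the class, linear up to 1 and logarithmic above) in 15 cell classes (vertical axis). Points are the libraries with suffix 1 (red) and suffix 2 (blue), open at 0 UMIs, lines are exact Poisson 95% intervals, and the numbers beside them are Smpdl3b UMIs. In deep and shallow hepatocyte-like cells the intervals of the libraries lie apart, while in T-like cells they cover each other at 5.50 and 6.57 CPM.

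Of the 634 deep cells with suffix 1, 79 held 1 Smpdl3b UMI, 20 held 2 and 2 held 3 or more, with a maximum of 4. Without the cell with most Smpdl3b UMIs the level was 8.36 CPM. With suffix 2 no deep cell held more than 1 UMI. Before thinning, 15.9% of deep cells with suffix 1 (13.2% to 19.0%) and 0.94% with suffix 2 (0.306% to 2.18%) had a Smpdl3b UMI.

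These shares depend on depth, so each cell was also thinned to 1000 UMIs. At that depth 9 of 634 deep cells with suffix 1 (1.42%, 0.651% to 2.68%) had a Smpdl3b UMI. With suffix 2 it was 0 of 532 (up to 0.691%), and the intervals of the libraries overlap. Erythroid-like cells should lack the gene. They gave 0 of 269 thinned cells with suffix 1 (up to 1.36%) and 0 of 108 with suffix 2 (up to 3.36%). Their unthinned medians were 3993.5 and 3647 UMIs. The thinned share with suffix 1 is thus not distinguishable from the erythroid-like limit at 1000 UMIs. Thinned to 5000 UMIs, 20 of 634 deep cells with suffix 1 (3.15%, 1.94% to 4.83%) had a Smpdl3b UMI and 1 of 532 with suffix 2 (0.188%, up to 1.04%), and the intervals lie apart. At that depth 1 of 111 erythroid-like cells with suffix 1 had one (0.901%, 0.0228% to 4.92%), and that interval covers the share of deep hepatocyte-like cells. Over whole classes, erythroid-like cells with suffix 1 were at 0.848 CPM (up to 4.72, 1 UMI), below the interval of deep hepatocyte-like cells.

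When all kept cells were clustered without the members and the mitochondrial genes, the deep hepatocyte-like cells of the libraries fell mostly into different clusters. One cluster held 475 of the 634 deep cells with suffix 1 (74.9%) and 1 of the 532 with suffix 2, and another held 341 of those with suffix 2 (64.1%) and 8 with suffix 1. The next largest with suffix 1 held 105 of its deep cells (16.6%) and no Smpdl3b UMI in 794657 UMIs. Of the Smpdl3b UMIs, 114 of the 126 with suffix 1 lay in the former, and 3 of the 5 with suffix 2 in the latter, where the 8 cells with suffix 1 held 1. In no cluster did both libraries have more than 8 deep cells.

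Shallow hepatocyte-like cells had the same order of the libraries. Smpdl3b was at 3.39 CPM with suffix 1 (41 UMIs) and 0.40 CPM with suffix 2 (2 UMIs), and the ratio was 8.46 (2.197 to 72.2). It was again the only member at least 2 times higher with suffix 1, where 4.52% of 10907 genes were, and 0 members were at least 2 times higher with suffix 2 (4.21%). With suffix 1 the deep cells exceeded the shallow ones 2.54 times (1.78 to 3.71). By depth, Smpdl3b with suffix 1 stayed between 2.74 and 4.15 CPM in the 4 groups of cells under 10000 UMIs and was at 9.80 CPM (17 UMIs) between 10000 and 20000 UMIs and 8.83 CPM (105 UMIs) from 20000 UMIs. The median mitochondrial share with suffix 1 stepped at the same place, from 1.04% to 1.93% in the 4 groups under 10000 UMIs to 17.9% and 17.0% in those above, and its part in this step was not tested. With suffix 2 no group exceeded 1.47 CPM or 2 UMIs. Droplets that a mitochondrial share over 25% had removed were counted apart. In hepatocyte-like ones from 5000 UMIs, Smpdl3b gave 13 UMIs in 148 droplets with suffix 1 (6.13 CPM) and 3 UMIs in 455 with suffix 2 (0.761 CPM), a ratio of 8.05 (2.21 to 44.0). With a mitochondrial limit of 10% the ratio in deep cells was 5.197 from 10 and 2 UMIs, and without any cell that held a marker of another class it was 2.52 from 4 and 2 UMIs in 67 and 87 cells, with an interval of 0.362 to 27.9 that holds 1.

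Outside hepatocytes Smpdl3b was sparse, and in most of the 15 classes with enough UMIs its level could not be ordered. Kupffer-like cells, the resident liver macrophages, were at 8.42 CPM (5.28 to 12.7, 22 UMIs) with suffix 1 and 3.28 CPM (1.64 to 5.87, 11 UMIs) with suffix 2. Their ratio of 2.57 (1.19 to 5.87) pointed the same way as in hepatocytes. Hepatocyte markers took 2.37% and 3.21% of the UMIs of Kupffer-like cells, and the part of hepatocyte RNA in this ratio was not tested. In Kupffer-like cells over deep hepatocyte-like cells the ratio was 0.977 (0.591 to 1.54) with suffix 1 and 5.29 (1.69 to 19.4) with suffix 2.

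T-like cells showed no such gap. They were at 5.50 CPM (16 UMIs in 545 cells) with suffix 1 and 6.57 CPM (17 UMIs in 525 cells) with suffix 2, a ratio of 0.837 (0.396 to 1.76). Monocyte-like cells had the highest mean level of the libraries, at 17.8 CPM from 3 UMIs in 25 cells with suffix 1 and 68.8 CPM from 8 UMIs in 19 cells with suffix 2. Of those 8 UMIs, 4 came from 1 cell. Plasma-like cells were at 17.9 CPM (6.56 to 38.9, 6 UMIs in 17 cells) with suffix 1, level with monocyte-like cells there, and at 2.69 CPM (1 UMI in 27 cells) with suffix 2. Macrophage-like cells that were not Kupffer-like were at 14.2 and 13.8 CPM, from 3 UMIs in each library. No Smpdl3b UMI was seen in cholangiocyte-like or NK-like cells. In the former the exact intervals reach 18.5 and 24.6 CPM. In the latter 3 UMIs would be 11.8 and 24.1 CPM. In the order of mean levels each class had an interval that reached the next class in both libraries, so no neighbours can be told apart. Of the Smpdl3b UMIs of all kept cells, deep hepatocyte-like cells held 47.9% of 263 with suffix 1 and 7.35% of 68 with suffix 2, where T-like cells held 25%.

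The genes whose levels over 31 profiles (classes with at least 100000 UMIs in a library) were most like those of Smpdl3b, among 11488 genes with at least 200 UMIs, were found by Pearson's r of log2(CPM + 1). They were Clec4a3 (0.774), Ms4a6d (0.768), Ptpro (0.752), Arhgef37 (0.749) and Clec4a1 (0.739). The profiles share libraries, and the Smpdl3b value rests on fewer than 10 UMIs in most classes. The list depended on the measure. By Spearman's rho 2 of these genes stayed, with a pseudocount of 10 CPM 3 stayed, and Clec4a1 was in neither list. In deep hepatocyte-like cells Arhgef37 was at 11.7 CPM with suffix 1 and 12.9 CPM with suffix 2, and Clec4a1 at 1.03 and 2.23 CPM.

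With the main settings the other 9 members differed between the libraries by less than 2 times in deep hepatocyte-like cells. Intervals of the ratio lay above 1 for 2 of the 10 members (Smpdl3b and Sgms2, where 19.9% of all genes tested did) and below 1 for 2 (Sgms1 and Sphk2, 17.0% of genes). For the other 6 the interval held 1. The median ratio over all genes was 1.03. Some alternative settings passed 2 times. With no marker of another class allowed (67 and 87 cells), Smpd1 and Asah1 were at 0.421, Sgms1 at 0.105 and Cers6 at 0.180. With a mitochondrial limit of 10% Sgms2 was at 2.12 and Cers6 at 3.98.

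Sphk2, a sphingosine kinase found in the nucleus and mitochondria, was at 9.92 CPM (8.37 to 11.7, 145 UMIs) with suffix 1 and 19.1 CPM (16.2 to 22.4, 154 UMIs) with suffix 2. The ratio of 0.519 (0.411 to 0.656) was the lowest of the members. The intervals of the levels lie apart. Sphk2 lies at chr7:45709467-45718002 on the minus strand, and its exons overlap those of Dbp and Rpl18 on the other strand. In the same cells Dbp, a clock-controlled transcription factor, was at 78.9 CPM (1154 UMIs) with suffix 1 and 30 CPM (242 UMIs) with suffix 2, and Rpl18 at 416.9 and 498.3 CPM. No source used here says whether the counting used strand, and without it reads of Sphk2 and of these genes cannot be told apart. In Kupffer-like cells the ratio of Sphk2 was 1.49 (1.03 to 2.18), on the other side of 1.

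Sgms1, the sphingomyelin synthase of the Golgi, was at 9.85 CPM (144 UMIs) with suffix 1 and 13.4 CPM (108 UMIs) with suffix 2 in deep cells, a ratio of 0.736 (0.569 to 0.953). Sgms2, its relative at the plasma membrane, was at 41.5 CPM (606 UMIs) and 34.7 CPM (280 UMIs), a ratio of 1.19 (1.03 to 1.38). The pair thus lay on opposite sides of 1, each by less than 1.5 times. Sgms2 changed sides where no marker of another class was allowed, at 0.731 from 11 and 19 UMIs, and was at 2.12 with a mitochondrial limit of 10%. Cers6, described next, was then at 0.180 (1 and 7 UMIs) and 3.98 (23 and 6 UMIs). Cers2, the ceramide synthase for very long acyl chains and the main one of the liver, was at 110.0 CPM (1608 UMIs) with suffix 1 and 114.1 CPM (920 UMIs) with suffix 2, a ratio of 0.964 (0.889 to 1.05). Cers6, a ceramide synthase for shorter acyl chains, was at 15.9 and 17.9 CPM, with a ratio of 0.889 (0.719 to 1.10). Degs1, the desaturase that completes ceramide, was at 43.8 and 41.9 CPM, with a ratio of 1.05 (0.916 to 1.20).

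Among the enzymes that break sphingolipids down, Smpd1, the acid sphingomyelinase of lysosomes, was at 22.6 CPM (331 UMIs) with suffix 1 and 19.3 CPM (156 UMIs) with suffix 2, a ratio of 1.17 (0.965 to 1.43). Asah1, the acid ceramidase, was at 16.01 and 13.4 CPM, with a ratio of 1.20 (0.948 to 1.52). Smpdl3a, a secreted phosphodiesterase and the closest relative of Smpdl3b in the set, was at 28.3 CPM (414 UMIs) and 28.4 CPM (229 UMIs), with a ratio of 0.997 (0.847 to 1.18). The gap of Smpdl3b was therefore not seen in Smpdl3a, whose interval ends below 2. The droplets removed for a mitochondrial share over 25% gave other ratios for some members. In those from 5000 UMIs Sgms2 was at 2.72 (1.94 to 3.85), Cers6 at 1.90 (1.21 to 2.98), Degs1 at 1.52 (1.123 to 2.06) and Sgms1 at 1.99 (1.15 to 3.46), on the other side of 1 from kept cells. Their median mitochondrial share was 41.4% with suffix 1 and 60.2% with suffix 2, and its part in these ratios was not tested.

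**Figure D2:**
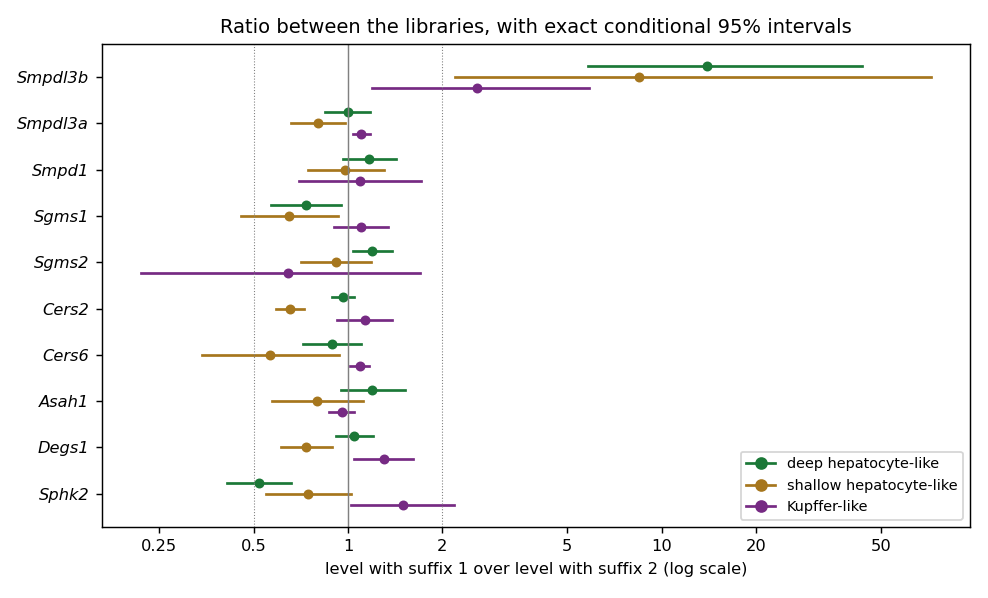
Ratio of the level with suffix 1 to that with suffix 2 (horizontal axis, log scale) for the 10 members (vertical axis) in deep hepatocyte-like (green), shallow hepatocyte-like (brown) and Kupffer-like (purple) cells. Points are ratios, lines exact conditional 95% intervals, and dotted lines mark 0.5 and 2. Smpdl3b stands apart at 13.9 in deep cells and 8.46 in shallow cells, and Sphk2 in deep cells is lowest at 0.519.

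In shallow hepatocyte-like cells 5 of the 10 members (Smpdl3a, Sgms1, Cers2, Cers6 and Degs1) had intervals below 1, where 14.3% of 10907 genes did, and Smpdl3b alone had one above 1 (23.6% of genes). The median ratio over all genes was 1.07. Cers2 was at 78.4 CPM (949 UMIs) with suffix 1 and 119.7 CPM (598 UMIs) with suffix 2, a ratio of 0.655 (0.590 to 0.727), against 0.964 in deep cells. Its level with suffix 1 differed between depth groups. It was 105.9 CPM under 1000 UMIs, 60.4 CPM between 2000 and 5000 UMIs, 69.1 CPM between 5000 and 10000 UMIs and 113.2 CPM from 20000 UMIs, with median mitochondrial shares of 1.93%, 1.04%, 1.116% and 17.0%, while with suffix 2 all depth groups lay between 104.9 and 134.7 CPM. Sgms1 was the only member below 1 in both depth classes by its intervals.

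The members also differed between the depth classes within a library. The median mitochondrial share differed with them, at 15.7% in deep and 1.64% in shallow cells with suffix 1 and 15.5% and 3.44% with suffix 2, and depth and mitochondrial share were not separated. With suffix 1 the deep over shallow ratio had an interval above 1 for 8 of 10 members, where 41.0% of 11771 genes did, and with suffix 2 for 3 of 9 members (Sgms2, Cers6 and Sphk2), where 34.3% of 10670 genes did. No member had an interval below 1 in either library (24.3% and 14.8% of genes). The median deep over shallow ratio over all genes was 1.18 with suffix 1 and 1.198 with suffix 2. Cers6 had the largest ratios, at 4.69 (3.35 to 6.70) with suffix 1 and 2.97 (1.99 to 4.56) with suffix 2. It was at 3.01 CPM in cells of 5000 to 10000 UMIs and 18.0 CPM from 20000 UMIs with suffix 1, and at 12.5 and 20.7 CPM with suffix 2. The median mitochondrial share of these cells was 1.116% and 17.0% with suffix 1 and 8.68% and 16.4% with suffix 2. Sgms2 followed at 2.55 (2.17 to 3.01) and 1.95 (1.53 to 2.50). Smpdl3a had an interval that held 1 in both libraries, with ratios of 1.117 and 0.897.

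**Figure D3:**
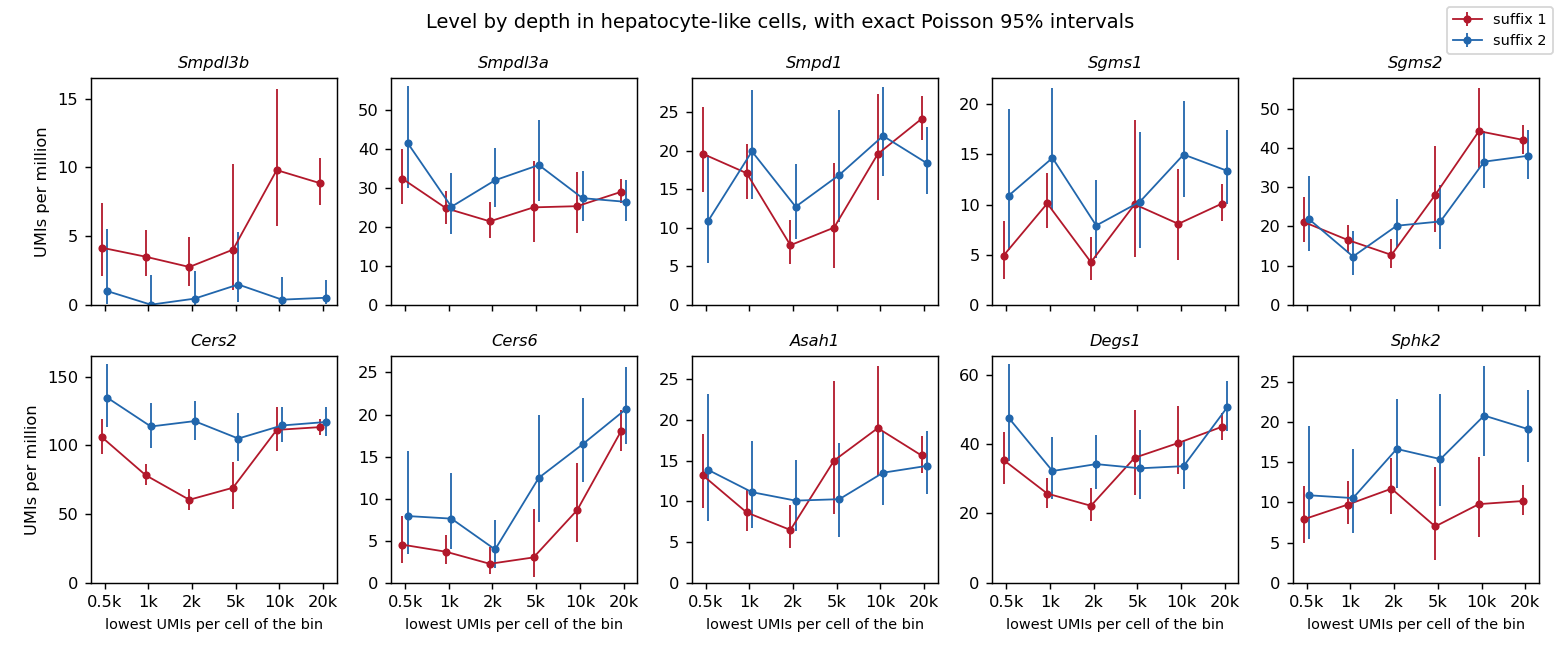
Level (vertical axis, UMIs per 1000000 UMIs, own scale in each panel) of each member in hepatocyte-like cells grouped by UMIs per cell (horizontal axis, the lowest count of each group, k for 1000) in the libraries with suffix 1 (red) and suffix 2 (blue). Points are group levels and lines exact Poisson 95% intervals. Smpdl3b with suffix 1 is at 9.80 and 8.83 CPM in the deepest groups, and Cers6 reaches 18.0 and 20.7 CPM from 20000 UMIs.

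Across cell classes the members fell into different patterns, and levels are compared here between classes for 1 gene at a time, since the counts are not scaled by gene length. Smpdl3a (chr10:57794335-57811830, plus strand) was highest in Kupffer-like cells, at 666.4 CPM (1741 UMIs) with suffix 1 and 604.1 CPM (2027 UMIs) with suffix 2. That is 23.5 times (21.1 to 26.3) and 21.3 times (18.6 to 24.5) its level in deep hepatocyte-like cells. Monocyte-like cells came next at 278.2 and 430.3 CPM, with intervals that did not reach those of Kupffer-like cells. Macrophage-like cells that were not Kupffer-like were at 166.0 and 298.0 CPM. Every other class stayed at or under 100.1 CPM.

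Smpd1 (chr7:105554360-105558389, plus strand) had no class that stood out. Deep hepatocyte-like cells had its highest mean level at 22.6 and 19.3 CPM, T-like cells were at 14.4 and 19.7 CPM, and Kupffer-like cells at 15.3 and 14.0 CPM. The Kupffer-like level was 0.676 times (0.474 to 0.941) that of deep hepatocyte-like cells with suffix 1 and 0.724 times (0.511 to 1.01) with suffix 2.

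The synthases of sphingomyelin differed in the class with the highest level, and both were high in neutrophil-like cells. Sgms1 (chr19:32122727-32389714, minus strand) was highest in endothelial-like cells, at 682.8 CPM (451 UMIs) with suffix 1 and 698.0 CPM (471 UMIs) with suffix 2, which is 69.3 times (57.3 to 84.2) and 52.1 times (42.2 to 64.9) the level in deep hepatocyte-like cells. Neutrophil-like cells were at 349.4 and 255.1 CPM and B-like cells at 269.7 and 254.4 CPM. The exons of Sgms1 overlap 2700046G09Rik on the other strand, which was at 2.19 and 1.61 CPM in deep hepatocyte-like cells. Sgms2 (chr3:131318985-131491411, minus strand) was highest in neutrophil-like cells, at 403.2 CPM (150 UMIs) and 239.1 CPM (30 UMIs), with a ratio between the libraries of 1.69 (1.13 to 2.59). Cholangiocyte-like cells were next at 140.2 CPM (28 UMIs) and 113.5 CPM (17 UMIs), with an interval that reached that of neutrophil-like cells with suffix 2. In Kupffer-like cells Sgms2 was at 2.68 and 4.17 CPM, which is 0.0646 times (0.0259 to 0.134) and 0.120 times (0.0649 to 0.205) the level in deep hepatocyte-like cells.

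Among the genes of ceramide synthesis, Cers2 (chr3:95314791-95323599, plus strand) had its highest mean level in deep hepatocyte-like cells and its lowest in erythroid-like cells, at 22.9 and 46.1 CPM. Kupffer-like cells were at 69.7 and 61.7 CPM, 0.633 times (0.540 to 0.739) and 0.541 times (0.463 to 0.630) the deep hepatocyte-like level. The exons of Cers2 overlap Setdb1 and 6330562C20Rik on the other strand, and Setdb1 was at 10.9 and 11.03 CPM in deep hepatocyte-like cells. Cers6 (chr2:68861441-69114282, plus strand) had its highest mean level in monocyte-like cells. Monocyte-like cells were at 935.2 CPM (158 UMIs) and 895.0 CPM (104 UMIs), neutrophil-like cells at 809.1 CPM (301 UMIs) and 390.6 CPM (49 UMIs), and Kupffer-like cells at 531.3 CPM (1388 UMIs) and 488.1 CPM (1638 UMIs). With suffix 1 the intervals of monocyte-like (795.1 to 1093) and neutrophil-like cells (720.2 to 905.8) overlap, so their order there cannot be told. In neutrophil-like cells the libraries lay apart, with a ratio of 2.07 (1.53 to 2.86). The Kupffer-like level was 33.5 times (29.1 to 38.6) and 27.3 times (23.0 to 32.7) that of deep hepatocyte-like cells. Degs1 (chr1:182275772-182282804, minus strand) was highest in endothelial-like cells, at 564.7 CPM (373 UMIs) and 490.5 CPM (331 UMIs), 12.9 times (11.3 to 14.7) and 11.7 times (10.0 to 13.7) the deep hepatocyte-like level. Monocyte-like cells, next by the mean of the libraries, were at 142.1 and 137.7 CPM, and cholangiocyte-like cells at 75.1 CPM with suffix 1 and 166.8 CPM (25 UMIs) with suffix 2.

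Asah1 (chr8:41340197-41374773, minus strand) was highest in Kupffer-like cells, at 321.1 CPM (839 UMIs) with suffix 1 and 336.5 CPM (1129 UMIs) with suffix 2, which is 20.1 times (17.3 to 23.3) and 25.1 times (20.6 to 30.9) the level in deep hepatocyte-like cells. Macrophage-like cells were at 147.0 and 206.3 CPM, monocyte-like cells at 153.9 and 197.9 CPM, and plasmacytoid dendritic-like cells, which make type I interferon, at 163.5 and 154.0 CPM. The intervals of these 3 classes reached each other in both libraries. T-like cells were at 15.5 and 13.9 CPM. Sphk2 was low throughout. Its highest mean level, in Kupffer-like cells, was 24.5 and 16.4 CPM, and intervals of neighbouring classes reached each other in both libraries along its whole order.

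**Figure D4:**
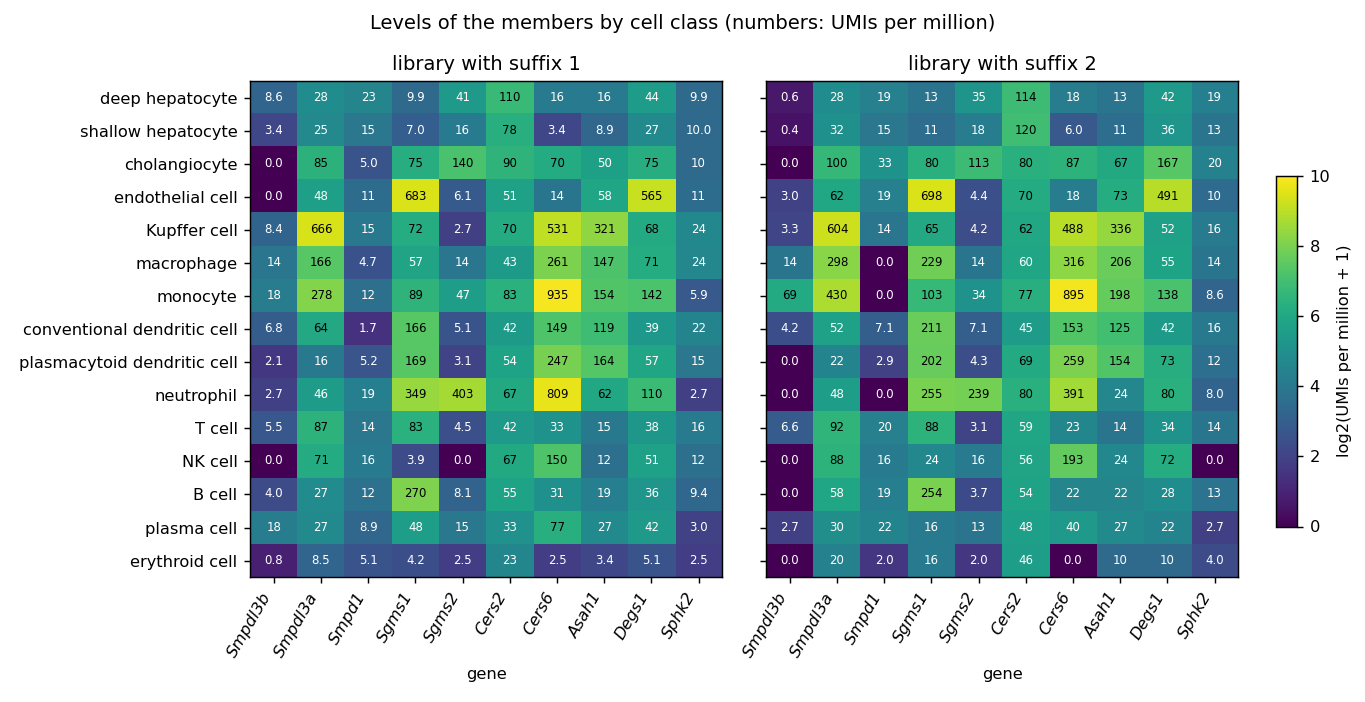
Levels of the 10 members (columns) in 15 cell classes (rows) in the library with suffix 1 (left) and suffix 2 (right). Numbers are UMIs per 1000000 UMIs of the class, and colour is log2 of that value plus 1. Sgms1 and Degs1 peak in endothelial-like cells, and Smpdl3a and Asah1 in Kupffer-like cells in both libraries, and Cers6 is highest in monocyte-like cells, with an interval that overlaps that of neutrophil-like cells with suffix 1.

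UMIs of the markers of other classes were also found in deep hepatocyte-like cells. All 6 Kupffer markers had UMIs in deep hepatocyte-like cells, at a summed 39.5 CPM with suffix 1 and 70.5 CPM with suffix 2, which is 0.337% and 0.597% of their level in Kupffer-like cells. The 7 endothelial markers were at 0.202% and 0.319% of their own class, and the 7 T cell markers at 0.367% and 0.571%. The 6 neutrophil markers were at 0.0287% with suffix 1 and 0.00753% with suffix 2, where Retnlg and Mmp8 were at 0. Cholangiocyte markers were at 1.13% of their own class with suffix 1 and 0.471% with suffix 2, where Cftr was at 0, and monocyte markers at 0.173%, with Chil3 at 0, and 0.332%. In comparison, Cers6 in deep hepatocyte-like cells was at 15.9 CPM beside 531.3 CPM in Kupffer-like cells with suffix 1, and Sgms1 at 9.85 CPM beside 682.8 CPM in endothelial-like cells. The part of these cells in the hepatocyte levels was not tested.

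The counts of members that differ between classes were read against all genes. Of 9 members with at least 20 UMIs in both comparisons, 4 (Smpdl3a, Sgms1, Cers6 and Asah1) were at least 2 times higher in Kupffer-like than in deep hepatocyte-like cells in both libraries, where 41.6% of 11346 genes were, and Sgms2 was at least 2 times lower (16.6% of genes). In endothelial-like cells 3 of 9 (Sgms1, Asah1 and Degs1) were higher, beside 39.9% of genes, and Sgms2 lower, beside 12.5%. In neutrophil-like cells 3 of 9 (Sgms1, Sgms2 and Cers6) were higher, beside 24.3%, and Sphk2 lower, beside 8.95%. The Sphk2 level in neutrophil-like cells rests on 1 UMI in each library, and its ratios to deep hepatocyte-like cells, 0.271 (0.00681 to 1.53) and 0.417 (0.0105 to 2.36), have intervals that hold 1. In T-like cells 2 of 10 (Smpdl3a and Sgms1) were higher, beside 40.4%, and Sgms2 lower, beside 18.5%. The shares for Kupffer-like, endothelial-like and neutrophil-like cells were thus near those of all genes. In Kupffer-like cells the ratio between the libraries had an interval above 1 for 5 of 10 members, where 13.6% of 10848 genes did, and below 1 for 0 (6.90%). Apart from Smpdl3b these were small: Smpdl3a 1.10, Cers6 1.09, Degs1 1.299 and Sphk2 1.49, beside a median of 1.05 over all genes.

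Hepatocytes differ along the lobule, from the portal vein to the central vein, so deep cells of each library were split into 3 groups of like size by the ratio of pericentral to periportal marker UMIs. Cyp2e1, a pericentral enzyme used for the split, went from 84.2 to 907.3 CPM with suffix 1 and from 102.0 to 736.3 CPM with suffix 2. Cyp2f2, a periportal enzyme also used for it, changed less. From the periportal to the pericentral group it went from 2049 to 1776 CPM with suffix 1 and from 1324 to 863.6 CPM with suffix 2. Smpdl3b with suffix 1 was at 10.7 CPM (69 UMIs in 215 cells) in the periportal group, 7.93 CPM (39 UMIs in 212 cells) in the middle and 5.55 CPM (18 UMIs in 207 cells) in the pericentral group. The periportal level was 1.92 times (1.13 to 3.43) the pericentral one. With suffix 2 the groups held 2, 1 and 2 UMIs, and no order can be read. Depth moved with the split: the median was 32085 UMIs in the periportal and 11787 in the pericentral group with suffix 1, and 19636 and 7903 with suffix 2. The median mitochondrial share moved with it too, at 16.2% and 12.9% with suffix 1 and 16.1% and 9.77% with suffix 2. Their part in these ratios was not tested.

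Of the other members, Cers6 with suffix 1 was 2.06 times (1.36 to 3.20) higher in the periportal group, and with suffix 2 its ratio was 0.974 (0.626 to 1.54). Sgms2 was 1.48 times (1.07 to 2.07) and Degs1 1.36 times (1.03 to 1.82) higher in the periportal group with suffix 2, beside 0.952 (0.772 to 1.18) and 1.17 (0.952 to 1.45) with suffix 1. So 2 of 10 members with suffix 1 and 2 of 9 with suffix 2 had intervals above 1, where 9.91% and 11.6% of genes did. No member had one below 1, where 13.8% and 17.9% of genes did, and no member was above 1 by its interval in both libraries.

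The rest of the pathway was read from a list of 55 other sphingolipid genes. In deep hepatocyte-like cells 41 of them had at least 20 UMIs over both libraries, 14 had fewer, and 4 of those had none. By the 2-fold rule 1 gene was higher with suffix 1 (beside 4.67% of all genes) and 2 were higher with suffix 2 (beside 4.71%). The median ratio was 0.94, beside 1.03 over all genes. The interval held 1 for 26 genes, lay above 1 for 9 (19.9% of all genes) and below 1 for 6 (17.0%). None of these 41 genes reached the ratio of Smpdl3b.

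The 4 highest ratios began with S1pr5, a receptor for sphingosine 1-phosphate, at 1.85 CPM (27 UMIs) with suffix 1 and 0.744 CPM (6 UMIs) with suffix 2, a ratio of 2.48 (1.00 to 7.35). Asah2, the neutral ceramidase, was at 21.1 CPM (309 UMIs) and 11.3 CPM (91 UMIs), a ratio of 1.87 (1.48 to 2.39). B4galt5, which makes lactosylceramide, had a ratio of 1.63 (1.38 to 1.91), and Samd8, a relative of the sphingomyelin synthases, one of 1.59 (1.34 to 1.91). The 4 lowest had few UMIs. Gba2, the non-lysosomal glucosylceramidase, was at 0.889 CPM (13 UMIs) and 1.98 CPM (16 UMIs), a ratio of 0.448 (0.198 to 0.994). Neu3, a plasma membrane sialidase, had a ratio of 0.467 (0.189 to 1.13), Cerk, the ceramide kinase, one of 0.521 (0.252 to 1.07), and Acer2, a Golgi ceramidase, one of 0.571 (0.328 to 0.997).

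**Figure D5:**
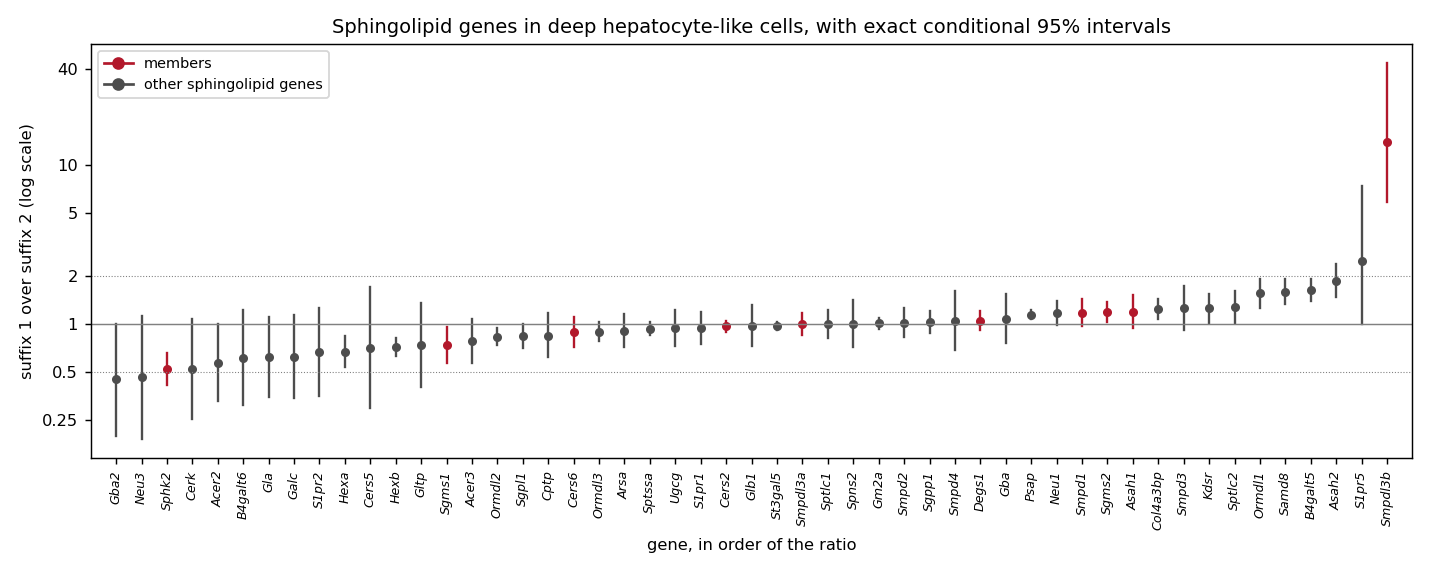
Ratio of the level with suffix 1 to that with suffix 2 (vertical axis, log scale) in deep hepatocyte-like cells for the 10 members (red) and 41 other sphingolipid genes (grey), in order of the ratio. Points are ratios and lines exact conditional 95% intervals. Smpdl3b is highest at 13.9, S1pr5 follows at 2.48, and Gba2 is lowest at 0.448.

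By cell class, 40 genes of the list had at least 200 UMIs in kept cells, and for 28 of them the class with the highest level was the same in both libraries, as it was for 52.3% of all 11488 genes with as many UMIs. Among these 28 it was endothelial-like cells for 9 (beside 14.2% of all genes with 1 such class), Kupffer-like cells for 7 (8.72%), cholangiocyte-like cells (20 and 17 cells in all) for 5 (17.6%) and deep hepatocyte-like cells for 0 (6.99%). Examples are Acer2, at 529.9 and 542.4 CPM in endothelial-like cells, and St3gal5, which makes the ganglioside GM3, at 987.9 and 986.7 CPM in Kupffer-like cells. Acer3, an alkaline ceramidase, was at 367.4 and 370.4 CPM in Kupffer-like cells.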

How the data were processed

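The deposited files hold 1 joined matrix of whole-number UMI counts for every gene in each barcode, as the authors' pipeline wrote it. The submitters' processing notes name Cell Ranger 7.1.0, STAR 2.7.2a, bcl2fastq 2.20.0 and build mm10. The annotation, cell calling, strand setting, intron counting and any scaling of the libraries to a common depth were not given in the sources used here. A UMI marks 1 cDNA molecule, so PCR copies are counted once.

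Cells were kept with at least 500 UMIs, 200 genes and at most 25% of UMIs from 13 mitochondrial genes, which left 17705. A cell entered a class with at least 3 of its markers and 0.2% of its UMIs from them (5% for erythroid markers). Cells in no other class with 8% or more of hepatocyte-marker UMIs were called hepatocyte-like, and deep from 5000 UMIs. Cells that passed 2 or more gates (177) were left out as possible doublets, no doublet caller was run, and 620 cells stayed unassigned. The members, marker lists and the pathway list were chosen with earlier results of these data known.

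UMIs were summed per class and library and divided by the class total (CPM), with exact Poisson intervals. Ratios between libraries carry exact conditional binomial intervals, and shares exact binomial (Clopper-Pearson) ones, all at 95%. Where no interval is given, a count of 0 was taken to allow 3 UMIs. Folds over all genes were read where both groups together held at least 20 UMIs, with a gene at 0 taken at 3 UMIs. Figures show the 15 classes with at least 100000 UMIs in both libraries, so stellate-like and basophil-like cells are not drawn. Named genes are the 10 members, Cebpa, the 4 highest and 4 lowest ratios of the pathway list and the 5 genes most like Smpdl3b. Other genes were named after values were seen. These were genes that overlap a member on the other strand, the markers of other classes and the leading genes of deep cells. Cyp2e1, Cyp2f2, St3gal5 and Acer3 were also named then. Of 32285 gene IDs, 32235 (99.85%) were found in GENCODE M21. That annotation may differ from the one the authors used. Coverage of the intervals was checked on simulated counts with Poisson error only. The simulation held no variation between cells or animals. Alternatives were other filters, depths, scalings and gates, and Leiden clusters (resolution 1, leidenalg 0.10.2, scanpy 1.11.5) in place of gates. Python 3.11.15, numpy 2.4.6 and scipy 1.17.1 were used.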

Additional observations from a re-analysis of the deposited data

Results flagged for a closer look

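Smpdl3b UMIs also lay in cells outside the classes compared in the report. Cells that passed more than 1 gate held 4 Smpdl3b UMIs with suffix 1 (4.54 CPM, 79 cells) and 4 with suffix 2 (4.20 CPM, 98 cells). Cells of no class held 31 with suffix 1 (11.9 CPM, 8.06 to 16.8, 337 cells) and 12 with suffix 2 (7.56 CPM, 3.91 to 13.2, 283 cells). All 4 counts were above the 3 UMIs that a count of 0 allows, which is what marked them. The intervals of the libraries overlap in both kinds of cell.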

How the results depend on the processing

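In the 14 alternatives that gave a value, Smpdl3b had a ratio of 2.52 to 20.01 between the libraries in deep hepatocyte-like cells and Sphk2 one of 0.503 to 0.626. With no marker of another class allowed, only 67 and 87 deep cells stayed and the ratios were 2.52 for Smpdl3b (0.362 to 27.9, 4 and 2 UMIs), 0.421 for Smpd1, 0.105 for Sgms1, 0.731 for Sgms2 (reversed, 11 and 19 UMIs), 0.885 for Cers2, 0.180 for Cers6, 0.421 for Asah1 and 0.878 for Degs1. With a mitochondrial limit of 10% (159 and 164 cells) they were 5.197 for Smpdl3b (10 and 2 UMIs), 2.12 for Sgms2, 3.98 for Cers6 (23 and 6 UMIs) and 1.44 for Degs1. With no limit Sgms2 was at 1.46. With the level of T-like and B-like cells subtracted, Cers2 was at 1.18 and Degs1 at 0.673, and members at or below that level in a library, Smpdl3b and Sphk2 among them, gave no value. Scaled without mitochondrial genes, mean levels were 681.3 CPM for Smpdl3a and 352.7 for Asah1 in Kupffer-like cells, and 24.8 for Smpd1 and 132.0 for Cers2 in deep hepatocyte-like cells. Without thinning, 15.9% and 0.94% of deep cells had a Smpdl3b UMI. Of the 5 genes most like Smpdl3b, 2 stayed by Spearman's rho (Clec4a3 and Ms4a6d) and 3 with a pseudocount of 10 (Ms4a6d, Ptpro and Arhgef37). The wider hepatocyte limit of 5% and the removal of shared barcodes were chosen after seeing the data and moved no ratio out of its interval. The cause of these moves was not tested.

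No paired analysis was possible because each genotype has 1 library and no label ties a library to a genotype. Leaving out a library leaves no comparison. The Smpdl3b level with suffix 2 rests on 5 UMIs in deep hepatocyte-like cells.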
